A study of Mus musculus with 6 samples.

Results

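Ion channels let ions run down their gradients across a membrane, and ion pumps spend ATP to build those gradients. In secretory epithelia such as the mammary gland, potassium channels and the sodium pump set the membrane voltage that drives secretion, while the vacuolar proton pump (V-ATPase) acidifies lysosomes, endosomes and parts of the secretory route. The V-ATPase has a cytosolic sector that splits ATP and a membrane sector that carries protons, and chloride/proton exchangers of the CLC family supply the counter-ion in the same organelles. In fat, vessel, nerve and muscle cells, which also lie in the gland, channels control excitability and tone.

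The members were all probe sets annotated to exactly 1 gene whose symbol starts with Kcn (potassium channels), Scn and a digit (sodium channels), Cacn (calcium channels), Clcn (chloride channels and exchangers), Atp1a or Atp1b (sodium pump), Atp2b (calcium pumps of the plasma membrane) or Atp6 (V-ATPase). The symbols gave 113 probe sets for 85 genes, out of 12422 probe sets and 8251 singly annotated genes on the array. No member had a symbol starting with Atp1a. RNA came from thoracic mammary glands of virgin mice, 16 weeks old, of an F1 CF-1/FVB background that both groups share. Mice carrying a transgene that overexpresses luteinizing hormone (LH), a pituitary hormone that acts on the gonads, were compared with wild type mice. The promoter of the transgene is not given in the sources used here. Each group held 3 Affymetrix arrays, every array carried a pool of RNA of 3 mice, and 18 mice were used in all. Values are the deposited MAS5 signals (mean ± SD over the 3 pools of a group, n = 3), and differences, given as LH transgenic minus wild type, were taken on log2(signal + 80), which understates changes of dim probe sets.

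Probe sets differ in brightness for reasons other than RNA level, so only the same probe set was compared between groups. As whole glands were measured, fewer cells of a type and less RNA per cell cannot be told apart. Markers of several cell types differed between the groups. Of the tested probe sets, 12 of 14 endothelial, 4 of 4 pericyte, 11 of 16 adipocyte, 7 of 12 fibroblast and 9 of 22 skeletal muscle markers were lower in the LH transgenic glands, while 9 of 14 luminal epithelial and 4 of 11 macrophage markers were higher. Over all tested probe sets, 10.8% were lower and 10.5% higher by the same measure. The summed marker signal was 42290 to 50965 on wild type and 20485 to 23008 on LH transgenic arrays for endothelial cells, 6032 to 6251 and 3255 to 3467 for pericytes, 206500 to 239608 and 132991 to 143088 for adipocytes, 130573 to 147494 and 28815 to 119344 for skeletal muscle, and 129385 to 185801 and 274892 to 325347 for luminal cells. The luminal sum includes the bright milk protein genes Wap (mean 34962 in wild type and 95087 in LH transgenic pools) and Csn2 (40554 and 74506). In the same list Krt8 (log2 0.27, limma adjusted p 0.261), Krt18 (0.04, 0.870) and Epcam (0.19, 0.347) were not called. The sum is thus no measure of luminal cell number. LH transgenic pool 3 stood apart in its skeletal muscle list mean, which was 0.53 against -1.37 and -1.06 in pools 1 and 2 and 0.57 to 0.71 in wild type pools. No marker value was 0. Of the defining markers, Acta1, Adipoq, Pdgfrb and Krt18 were measured above the background threshold given next. The part of tissue makeup in the differences below was not tested.

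Detection calls were not used here, so a signal of 336.0 or more (this is where the 40th percentile of probe set means lies) was taken as above background. By that measure 39 member probe sets (29 genes) were above background on all 6 arrays, 18 on 1 to 5 arrays and 56 on no array. The Y-linked genes Kdm5d, Eif2s3y, Uty and Sry, which virgin female glands lack, reached at most 142.7, and 32 members never exceeded that signal. A mean of at least 336.0 over the 6 arrays was required for the test, and 47 members (37 genes) passed it. Of these, Kcnk2 and Kcna5 were above background on all 3 wild type arrays and on no LH transgenic array, so both passed through the wild type values alone, which favours a difference.

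Most probe sets for voltage-operated channels were too dim for the test. Of 26 probe sets for voltage-gated potassium channels and their auxiliary subunits 3 were tested, of 8 for sodium channels 1, and of 13 for calcium channels 4. The single Atp2b probe set (Atp2b2, a plasma membrane calcium pump) had signals of 52.3 to 172.2 and was not tested. In contrast, 20 of 22 V-ATPase probe sets, covering 15 of 15 genes, and 9 of 13 CLC probe sets were tested. Of the 66 members not tested, 10 had at least 1 array above background, and none of the 66 had all 3 arrays of a group above it. The brightest single values among them were 457.8 for Kcnj8 (wild type pool 1), a pore subunit of ATP-sensitive potassium channels, 456.4 for Kcnj11 (LH transgenic pool 3), its pancreatic and muscle relative, and 431.1 for Kcnab3 (LH transgenic pool 2), an auxiliary subunit. The others of these were Cacng1, Clcn2, Kcnk3, Kcnd3, Kcne1 and one probe set each of Kcnab2 and Kcnq1.

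In the comparison of LH transgenic with wild type glands, 12 of the 47 tested probe sets were higher and 4 lower at a limma adjusted p under 0.05 (Benjamini-Hochberg over all tested probe sets). These 16 are 34.0% of the members tested, where 21.3% of all 7453 tested probe sets were called. By direction, 25.5% of the members were higher against a background of 10.5%, and the 4 lower calls stood against a background of 10.8%. Among these 4, Kcnk2 and Kcna5 had passed the filter through the wild type values alone. The 12 higher calls come from 8 genes, since Clcn3 gave 4 of them and Atp6v0a2 gave 2. The groups did not overlap for 27 of the 47 (57.4%, background 40.4%). The median log2 difference was 0.20 over the members and 0.02 over all tested probe sets. When each array was scaled to its bacterial hybridisation controls, the median of all tested probe sets moved by -0.554, and 1 member (Atp6v0a2) remained called higher while 14 were called lower. On that scale 47.8% of all 7453 tested probe sets were called, and 5.08% of these calls were higher. The higher calls below are relative to the other probe sets of the array.

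**Figure D1:**
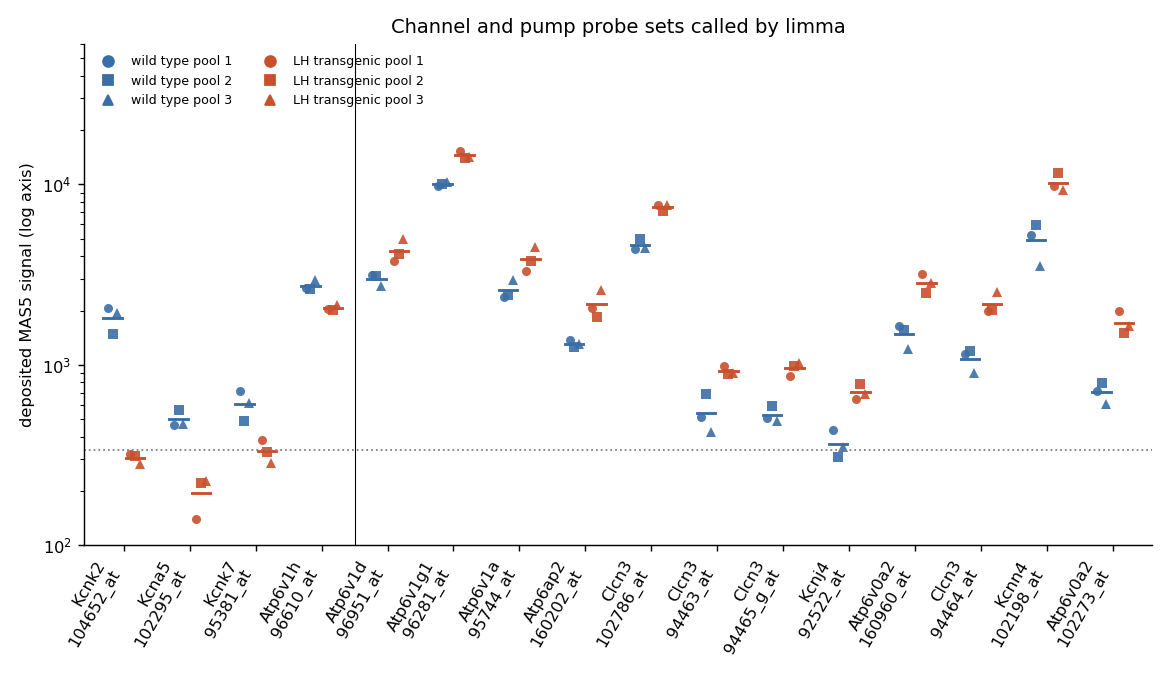
Deposited MAS5 signal (log axis) of the 16 member probe sets called by limma, with 1 symbol per pool, wild type in blue and LH transgenic in red, bars at the group means and a dotted line at the background threshold of 336.0. The 4 probe sets left of the vertical line were lower and the 12 on the right higher in LH transgenic glands, with no overlap between groups. Of all tested probe sets 40.4% did not overlap.

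Among the potassium channels, Kcnk2 changed most. It encodes a tandem-pore background channel that responds to membrane stretch and lipids, and its signals were 2069.9, 1476.3 and 1934.3 in the wild type pools and 320.0, 311.3 and 281.1 in the LH transgenic pools. Every LH transgenic value lay below the background threshold, and the wild type values lay well above it. The probe set thus passed the filter through the wild type pools alone, which favours a difference. Mean signal fell from 1827 ± 311 to 304 ± 20.4 (log2 -2.30, SE 0.17, limma adjusted p 0.000105), at least 5.38-fold lower when the threshold stands for the dim group. Without any 1 array the difference stayed between -2.44 and -2.21, and the call was kept under 18 of 19 other settings. It was not called with the adipocyte marker level as a covariate (log2 -2.45, adjusted p 0.616), a fit in which 0 of 7453 probe sets were called and 435 had an unadjusted p under 0.05.

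Kcna5, a voltage-gated channel of heart and vascular smooth muscle, was also lower. Its brighter probe set gave 461.3, 561.9 and 470.3 in wild type and 139.3, 220.9 and 226.4 in LH transgenic pools. The LH transgenic values were all below the threshold, and the bound is a fall of at least 1.48-fold. The fit gave log2 -1.08 (SE 0.23, limma adjusted p 0.0100) for a probe set whose mean signal of 346.7 passed the filter through the wild type pools alone. The second Kcna5 probe set reached at most 84.9 and was not tested. When the muscle marker level was added to the model, the call was lost (log2 -0.85, adjusted p 0.134). That fit called 747 of all 7453 tested probe sets, where the main fit called 1586. A call lost under it, here and below, can thus come with an estimate that hardly moved. The part of muscle tissue in these differences was not tested. The endothelial, pericyte, adipocyte and fibroblast lists were each lower in all 3 LH transgenic pools than in any wild type pool, as were Kcnk2 and Kcna5. The part of these lists in the result was not tested. The smooth muscle and myoepithelial list did not move with Kcnk2 and Kcna5. Of its 7 tested probe sets 6 had a difference above 0 (median 0.19), 1 of them called (Acta2, log2 0.66, adjusted p 0.0112). Its list mean was -0.28 to 0.05 in wild type and 0.07 to 0.16 in LH transgenic pools.

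Kcnk7 encodes a tandem-pore family member for which no current of its own is known. Its signals were 712.3, 488.1 and 614.7 in wild type and 382.3, 329.9 and 286.5 in LH transgenic pools, of which 1 lay above the threshold. The groups did not overlap (log2 -0.72, SE 0.21, limma adjusted p 0.0334). The call was lost without wild type pool 1 or 3 and without LH transgenic pool 2 or 3 (log2 -0.72 to -0.61, adjusted p 0.0678 to 0.131), and with the muscle marker level in the model (-0.93, adjusted p 0.0810).

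Kcnn4 rose. It encodes the intermediate-conductance calcium-activated potassium channel, which serves fluid secretion in epithelia and calcium entry in lymphocytes and macrophages. Its signals were 5249.9, 5923.6 and 3534.7 in the wild type pools and 9808.2, 11616.4 and 9291.9 in the LH transgenic pools. The lowest LH transgenic value exceeded the highest wild type value by a wide margin, and the mean went from 4903 ± 1232 to 10239 ± 1221 (log2 1.08, SE 0.19, limma adjusted p 0.00444, 2.11-fold). On the scale of the bacterial controls the difference was 0.49 (adjusted p 0.0678), which is 1.02 above the median of all probe sets there, and with the muscle marker level in the model 0.99 (adjusted p 0.0641). The small-conductance relative Kcnn1 had 573 ± 42.8 and 598 ± 135 (log2 0.04, 95% interval -0.41 to 0.48) and was not called. Luminal epithelial and macrophage markers moved in the same direction as Kcnn4, and their part in the result was not tested.

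Kcnj4, a strongly rectifying inward rectifier of brain and heart, rose as well. It had 432.7, 309.0 and 350.4 in wild type and 646.8, 778.5 and 690.8 in LH transgenic pools, all of the latter higher than any wild type pool (log2 0.83, SE 0.19, limma adjusted p 0.0129). Wild type pool 2 was below the background threshold. With the muscle marker level in the model the call was lost (0.82, SE 0.28, adjusted p 0.102), although the estimate hardly moved.

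The other tested potassium channels were not called. Kcnk1, a tandem-pore channel of epithelia and brain, had 1690.1, 3486.6 and 2060.9 in wild type and 3695.2, 3356.4 and 3391.7 in LH transgenic pools (log2 0.58, adjusted p 0.106). Wild type pool 2 lay among the LH transgenic values, and without it the difference was 0.87 and was called (adjusted p 0.0092). Kcnk4 (0.26), Kcnh2 (-0.39), a delayed rectifier of the heart, and the r-suffixed probe set of Kcnq1 (-0.08), a potassium channel of heart and epithelia, had adjusted p values of 0.371, 0.144 and 0.812. The other Kcnq1 probe set was too dim for the test and pointed the other way. Its values were 147.6 to 250.6 in wild type and 252.6 to 343.8 in LH transgenic pools. The probe sets of Kcnj9, a subunit of G protein-gated channels, pointed in opposite directions. The brighter one (r-suffixed, which marks a set that did not meet all design rules) had 921 ± 301 and 1291 ± 362 (log2 0.47, adjusted p 0.220), while the other was too dim for the test, with wild type values of 205.9 to 262.9 and LH transgenic values of 70.9 to 141.3.

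Sodium and calcium channels gave no limma call among 5 tested probe sets, of which 1, Cacna1s, had an unadjusted p under 0.05. Over all tested probe sets 21.3% were called. Cacna1s, the voltage sensor and calcium channel of skeletal muscle, had 795.2, 892.0 and 691.7 in wild type pools and 192.8, 292.4 and 672.2 in LH transgenic pools. LH transgenic pools 1 and 2 were low and pool 3 lay just below the wild type range, the same order as the skeletal muscle markers. Its log2 difference was -1.03 (95% interval -1.78 to -0.29, limma adjusted p 0.0522). Without LH transgenic pool 3 it was -1.45 and was called (adjusted p 0.00358), and it was also called under 6 of the other settings, among them quantile normalization (-1.07, adjusted p 0.0468). Ryr1, the calcium release channel that Cacna1s opens in skeletal muscle, and the sarcoplasmic calcium pump Atp2a1, which are no members, had 157.8, 304.9 and 1014.5 and 2655.6, 3060.7 and 11526.2 (the brighter of its probe sets) in LH transgenic pools 1, 2 and 3, where wild type pools had 1101.1 to 1502.0 and 17292.4 to 21718.5. Both fell (log2 -1.56 and -2.10, limma adjusted p 0.0367 and 0.0104).

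Scn7a, a sodium-sensing channel of glia and peripheral nerve, had 907.6, 513.7 and 498.9 in wild type and 459.2, 190.3 and 475.3 in LH transgenic pools (log2 -0.69, 95% interval -1.41 to 0.03, adjusted p 0.162). The groups did not overlap, but wild type pools 2 and 3 lay close to LH transgenic pools 1 and 3. Cacnb2, an auxiliary subunit, was 502 ± 96.6 and 339 ± 34.6 (log2 -0.46, adjusted p 0.144). Cacna1c, the main calcium channel of heart and smooth muscle, was 734 ± 107 and 674 ± 161 (log2 -0.13, adjusted p 0.710), and Cacna1b, a channel of nerve endings, 385 ± 57.7 and 532 ± 100 (log2 0.39, adjusted p 0.212).

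**Figure D2:**
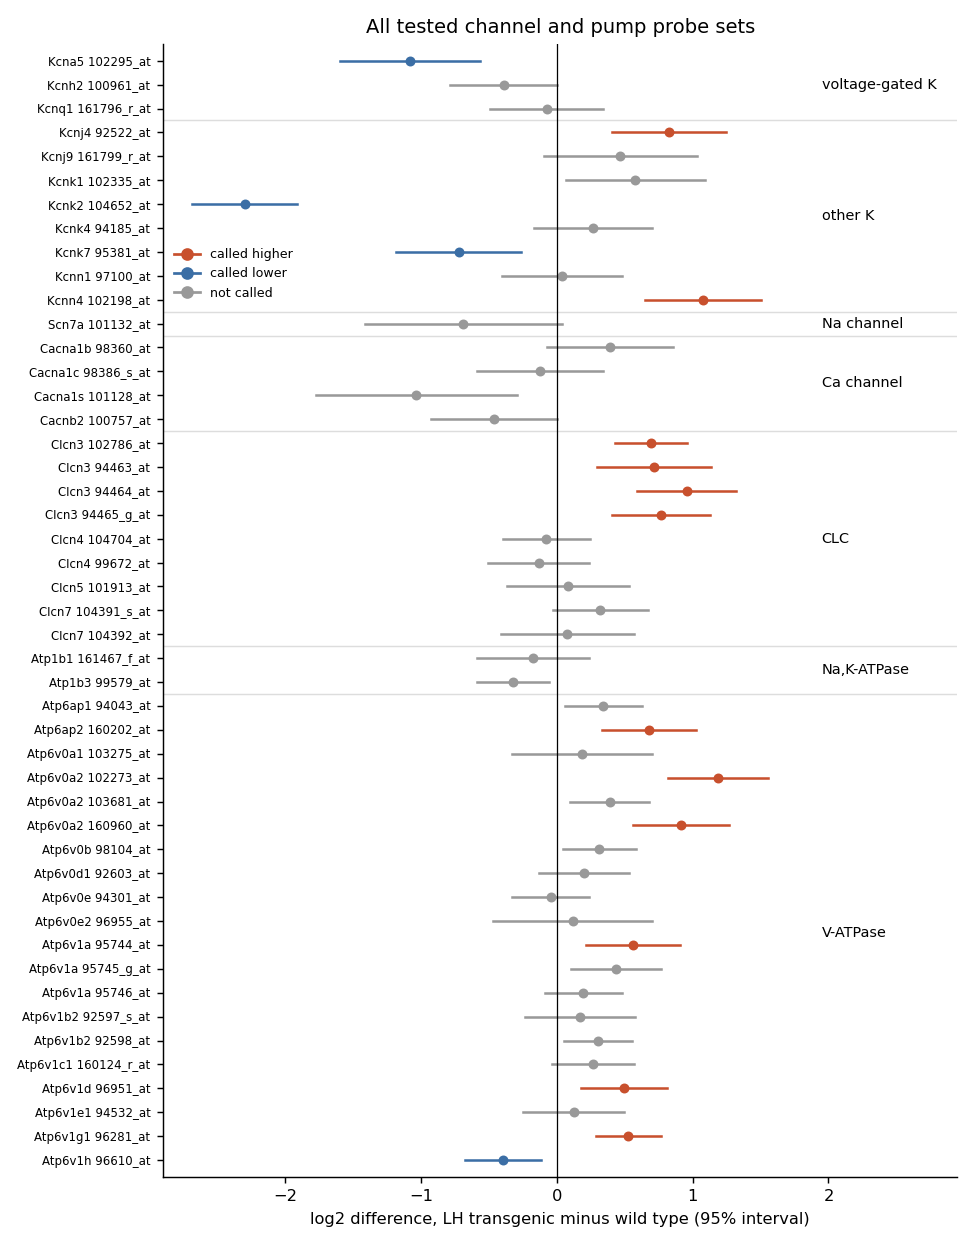
Log2 difference, LH transgenic minus wild type, of all 47 tested member probe sets with 95% intervals, grouped by family, with higher calls in red, lower calls in blue and others in grey. Kcnk2 lies at -2.30, the 4 Clcn3 probe sets lie at 0.69 to 0.96, and 18 of 20 V-ATPase probe sets lie above 0.

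Both tested sodium pump probe sets belong to beta subunits, which bring the catalytic subunit to the membrane. Atp1b3 had 15349.2, 15447.4 and 18325.8 in wild type and 13471.0, 12553.9 and 13093.1 in LH transgenic pools. The groups did not overlap, yet the difference was small (log2 -0.32, 95% interval -0.59 to -0.06) and was not called (adjusted p 0.0797). It was called after quantile normalization (log2 -0.40, adjusted p 0.0411). Atp1b1 had 547 ± 25.5 and 478 ± 79.6 (log2 -0.18, adjusted p 0.535), and its second probe set and both of Atp1b2 were too dim for the test. Of 4 tested FXYD proteins, small regulators of the sodium pump, 1 was called (25%, background 21.3%). This was Fxyd1, which fell from 6408 ± 203 to 2124 ± 411 (log2 -1.57, limma adjusted p 0.000316). Fxyd2 (-0.75, adjusted p 0.0795) and Fxyd5 (-0.59, adjusted p 0.140) also had differences below 0, and whether they differ from Fxyd1 was not tested.

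Of 9 tested CLC probe sets 4 were called (44.4%, against 21.3% of all tested), all of 1 gene among the 4 CLC genes tested. All 4 probe sets of Clcn3, a chloride/proton exchanger of endosomes and synaptic and secretory vesicles, rose, and no probe set of another CLC gene was called. The brightest had 4376.1, 4969.9 and 4463.3 in wild type and 7678.4, 7127.4 and 7645.8 in LH transgenic pools. The groups are far apart relative to the spread within them (4603 ± 321 and 7484 ± 309, log2 0.69, SE 0.12, limma adjusted p 0.00372). The other Clcn3 probe sets, in falling order of signal, rose by 0.96, 0.77 and 0.71 on the log2 scale, with adjusted p values of 0.00372, 0.00928 and 0.0240. Probe sets of 1 gene share their RNA and are not replicates. The call of the dimmest was lost without wild type pool 1 or 3 and without LH transgenic pool 1 or 2 (log2 0.58 to 0.74, adjusted p 0.0502 to 0.0877), and with the muscle marker level in the model (0.69, adjusted p 0.156). On the scale of the bacterial controls the 4 differences were 0.11 to 0.39 and none was called.

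Clcn4, a close relative of Clcn3, had 1995 ± 46.2 and 1900 ± 283 with its brighter probe set (log2 -0.08, 95% interval -0.40 to 0.25) and 1196 ± 112 and 1090 ± 204 with the other (log2 -0.14). The change of the brightest Clcn3 probe set relative to the brighter one of Clcn4, taken within each array and so free of array scaling, was 0.77 on the log2 scale. The within-array log2 ratio was 1.07 to 1.30 in wild type and 1.67 to 2.18 in LH transgenic pools. The exact permutation test gave p = 0.1, the smallest that 3 arrays against 3 allow (adjusted 0.133 over 8 pairs, which were chosen after the values were seen). Clcn5, the endosomal exchanger of the kidney (log2 0.08), and Clcn7, the lysosomal exchanger (0.32 and 0.08 by its probe sets), were not called (adjusted p 0.174 to 0.842). The interval of the brighter Clcn7 probe set (-0.03 to 0.67) overlaps those of Clcn3, and no test of Clcn3 against Clcn5 or Clcn7 was made. The skeletal muscle channel gene Clcn1 was too dim for the test, as was Clcn2, with 106.6, 248.8 and 141.7 in wild type and 372.9, 314.8 and 252.9 in LH transgenic pools.

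All V-ATPase genes under the symbol rule had a tested probe set. Of 20 tested probe sets 6 rose, 1 fell and 13 were not called (35.0% called, against 21.3% of all tested). A difference above 0, called or not, was seen for 18 of 20, against 3933 of 7453 over all tested probe sets, and the median was 0.31. In the membrane sector, 2 of 3 probe sets of Atp6v0a2, the a2 subunit found in Golgi and endosomes, rose. The dimmest had 713.4, 794.8 and 610.1 in wild type and 1989.4, 1496.0 and 1645.0 in LH transgenic pools. The groups lay far apart (log2 1.18, SE 0.16, limma adjusted p 0.00147). The middle one had 1649.1, 1558.3 and 1224.5 against 3199.9, 2514.5 and 2837.8 (log2 0.92, SE 0.16, adjusted p 0.00397).

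The brightest Atp6v0a2 probe set differed less, with 3986 ± 361 and 5236 ± 398 (log2 0.39, adjusted p 0.0592), and was not called. Within arrays, the dimmest changed by 0.80 more than the brightest and the middle one by 0.53 more, without overlap between groups (exact permutation p = 0.1 each, the smallest possible, adjusted 0.133 over 8 pairs). These pairs too were chosen after the values were seen. Which transcripts each probe set reads is not given in the sources used here. Of the other membrane-sector genes, Atp6v0b, a proteolipid subunit, had 8214 ± 687 and 10205 ± 583 (log2 0.31, 95% interval 0.04 to 0.58, adjusted p 0.0936). Atp6v0a1, Atp6v0d1, Atp6v0e and Atp6v0e2 had differences of -0.05 to 0.20 and adjusted p values of 0.370 to 0.834.

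In the cytosolic sector, Atp6v1g1, a subunit of the peripheral stalk, rose from 9857.0, 10025.4 and 10266.8 in wild type to 15265.1, 14034.5 and 14265.4 in LH transgenic pools (log2 0.53, SE 0.11, limma adjusted p 0.00823). The call was lost with the muscle marker level in the model (0.49, adjusted p 0.0747). Atp6v1d, a subunit of the central stalk, had 3163.3, 3110.9 and 2736.5 against 3767.0, 4139.5 and 4951.9 (log2 0.50, adjusted p 0.0348). That call was lost without any 1 of the wild type pools or without LH transgenic pool 2 or 3 (log2 0.39 to 0.53, adjusted p 0.0610 to 0.120). Of 3 probe sets of Atp6v1a, the catalytic subunit, the middle one by signal rose (2589 ± 319 to 3864 ± 591, log2 0.56, adjusted p 0.0296). It too lost its call without wild type pool 1 or 2 or LH transgenic pool 2 or 3 (log2 0.45 to 0.57, adjusted p 0.0581 to 0.110). The other Atp6v1a probe sets differed by 0.43 and 0.19 and were not called (adjusted p 0.0657 and 0.309).

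Atp6v1h, the regulatory H subunit that couples ATP hydrolysis to proton transport, was the V-ATPase gene that fell. It had 2662.8, 2635.2 and 2947.6 in wild type and 2045.1, 2004.0 and 2159.2 in LH transgenic pools. The groups did not overlap (log2 -0.40, SE 0.12, limma adjusted p 0.0492), but the call was lost under 10 of 19 other settings, including removal of any 1 array except LH transgenic pool 3 (log2 -0.42 to -0.35, adjusted p 0.101 to 0.159). Within arrays, Atp6v1g1 changed by 0.92 more than Atp6v1h, with log2 ratios of 1.77 to 1.90 in wild type and 2.68 to 2.85 in LH transgenic pools (exact permutation p = 0.1, the smallest possible, adjusted 0.133 over 8 pairs). A higher call was here set against a lower one after the values were seen. The separation of the ratios was built into that choice and is no support for either call. Atp6v1b2 (0.30 and 0.17), Atp6v1c1 (0.27) and Atp6v1e1 (0.12) were not called (adjusted p 0.0838 to 0.644).

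The accessory protein Atp6ap2, also known as the prorenin receptor, rose. It had 1372.8, 1249.6 and 1298.7 in wild type and 2056.5, 1842.1 and 2586.9 in LH transgenic pools, with all 3 LH transgenic values above the wild type range (log2 0.68, SE 0.15, limma adjusted p 0.0130). Atp6ap1 had 5105 ± 498 and 6482 ± 344 (log2 0.34, adjusted p 0.0802), and its r-suffixed probe set was too dim for the test. Tcirg1, which encodes a further a subunit of the membrane sector but lies outside the symbol rule, had 2476 ± 405 and 2644 ± 792 (log2 0.06, adjusted p 0.876). It was listed with the lysosomal genes Lamp1, Lamp2 and Rab7 as 6 probe sets in all. None of these was called by limma, where 21.3% of all tested probe sets were called. An unadjusted p under 0.05 was seen for 0 of them, and their median log2 difference was 0.07. On the scale of the bacterial controls the median of the V-ATPase probe sets was -0.28 and that of all tested probe sets -0.531. The called probe set of Atp6v1a (-0.02), Atp6v1d (-0.09) and Atp6v1g1 (-0.06) turned below 0 there, while the dimmest probe set of Atp6v0a2 remained higher (0.64, adjusted p 0.0290).

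**Figure D3:**
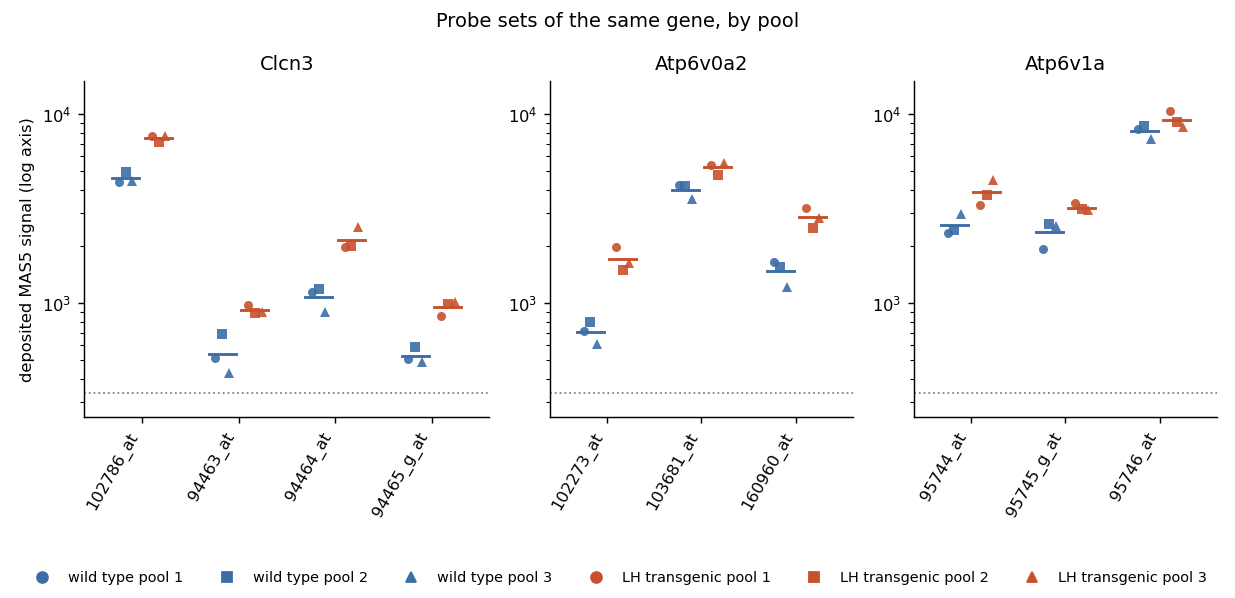
Deposited MAS5 signal (log axis) by pool for the probe sets of Clcn3, Atp6v0a2 and Atp6v1a, with bars at group means and a dotted line at the background threshold of 336.0. The groups do not overlap for any of the 4 Clcn3 and 3 Atp6v0a2 probe sets, and they overlap for the brightest of Atp6v1a.

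Upstream sequence of these genes is shown because lysosomal genes, V-ATPase subunits among them, are known to carry the E-box CACGTG, the core of the site bound by TFEB, a transcription factor of lysosome formation. The 250 bases before each annotated start (RefSeq, GRCm38.p6) were available for 31 of the 37 tested genes, as 43 windows. CACGTG, which reads the same on both strands, occurred in 6 of the 43 windows (14%) and in 6.02% of all 32851 windows. Those of V-ATPase genes held it in 2 of 10 cases, and those of genes with a call in 2 of 13. No window was at hand for Atp6v0a2, Atp6v1g1 and Atp6v1h, which were called, or for Atp6v1b2, Atp6v1c1 and Kcnq1, which were not. The windows of Kcnn4 and of V-ATPase and CLC genes with and without a call are given 5′ to 3′ with CACGTG in capitals. They were picked, and they hold the motif more often than the 43 windows do.
Kcnn4, GRCm38.p6 chr7:24370013-24370262, plus strand: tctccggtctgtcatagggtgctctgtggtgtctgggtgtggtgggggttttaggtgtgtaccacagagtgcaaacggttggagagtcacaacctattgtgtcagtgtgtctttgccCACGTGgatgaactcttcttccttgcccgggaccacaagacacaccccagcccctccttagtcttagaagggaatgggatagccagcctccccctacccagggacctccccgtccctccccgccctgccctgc
Atp6v1a, GRCm38.p6 chr16:44139260-44139509, minus strand: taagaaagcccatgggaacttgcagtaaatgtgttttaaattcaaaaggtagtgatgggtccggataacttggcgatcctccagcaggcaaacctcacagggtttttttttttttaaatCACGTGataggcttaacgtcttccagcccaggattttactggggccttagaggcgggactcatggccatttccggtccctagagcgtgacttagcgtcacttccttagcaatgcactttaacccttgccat
Atp6v0b, GRCm38.p6 chr4:117887330-117887579, minus strand: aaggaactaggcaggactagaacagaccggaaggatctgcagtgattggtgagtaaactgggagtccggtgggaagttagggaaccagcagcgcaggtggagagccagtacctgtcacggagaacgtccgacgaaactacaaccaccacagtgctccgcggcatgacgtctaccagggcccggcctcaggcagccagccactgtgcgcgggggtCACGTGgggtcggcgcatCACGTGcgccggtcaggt
Clcn7, GRCm38.p6 chr17:25133141-25133390, plus strand: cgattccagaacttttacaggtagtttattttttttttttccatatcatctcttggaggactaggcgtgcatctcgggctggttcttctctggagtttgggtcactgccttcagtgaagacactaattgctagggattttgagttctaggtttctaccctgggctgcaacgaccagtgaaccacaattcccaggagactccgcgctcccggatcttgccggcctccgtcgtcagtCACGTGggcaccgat
Clcn3, GRCm38.p6 chr8:60983312-60983561, minus strand: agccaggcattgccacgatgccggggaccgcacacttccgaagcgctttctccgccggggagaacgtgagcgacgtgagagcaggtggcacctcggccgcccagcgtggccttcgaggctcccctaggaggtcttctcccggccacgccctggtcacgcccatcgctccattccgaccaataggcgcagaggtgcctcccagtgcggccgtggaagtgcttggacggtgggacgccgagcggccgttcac

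The Kcnn4 and Atp6v1a windows held 1 match each, beginning 133 and 131 bases before the start. Atp6v0b held 2 matches, at 36 and 18 bases, and Clcn7 held 1 at 15 bases, and neither gene was called. Clcn4 and the second start of Atp1b3, also not called, held 1 match each, at 153 and 221 bases. The first Clcn3 window and the second, which is not shown, held none, although all 4 probe sets of Clcn3 rose. The windows of Atp6ap2 and Atp6v1d, which were called higher, held none either and are not shown. A match of these letters is a description.

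**Figure D4:**
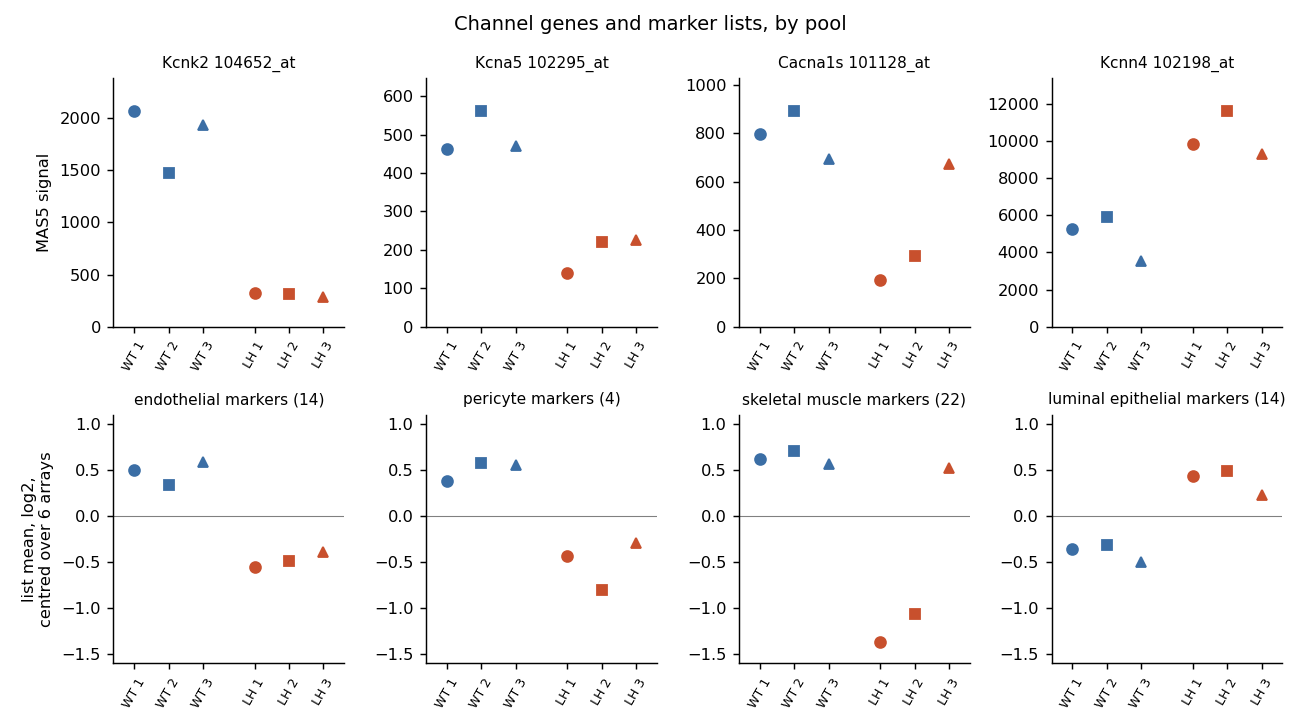
Upper row, deposited MAS5 signal by pool of Kcnk2, Kcna5, Cacna1s and Kcnn4. Lower row, mean log2 level by pool of the tested endothelial, pericyte, skeletal muscle and luminal epithelial markers, centred over the 6 arrays, with the number of probe sets in brackets. LH transgenic pool 3 lies near the wild type pools for Cacna1s (672.2) and for skeletal muscle markers (0.53), but not for Kcnk2 (281.1).

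Other lists of ion transport genes held calls in both directions, beside a background of 21.3% called (10.5% higher, 10.8% lower). Of 8 tested probe sets of sarcoplasmic, Golgi and other P-type pumps, Atp7a, a copper pump, rose with 1 of its 2 (log2 0.88, adjusted p 0.0157), and Atp2a3 (-0.87, adjusted p 0.0388) and 1 of 2 probe sets of Atp2a1, both calcium pumps of the endoplasmic reticulum, fell (37.5% called). Among 5 probe sets of calcium release and store genes, Ryr1, Casq1 (-1.57, adjusted p 0.00753) and Stim1 (-0.77, adjusted p 0.0197), the store calcium sensor, fell and none rose (60% called). Ryr1 and Casq1 are also in the skeletal muscle list, and Casq1 had 970.9, 1106.2 and 2692.6 in LH transgenic pools 1, 2 and 3, with pool 3 nearest to the wild type range. Of 7 probe sets for anion channels and related proteins (Clca1, Clns1a, Cftr and Clic4, 14.3% called) Clca1 was called, from 414 ± 154 to 951 ± 69.3 (adjusted p 0.00804), by an r-suffixed probe set. Its other probe set, at 91.8 to 160.7 over the 6 arrays, was too dim for the test and had no higher mean in LH transgenic glands. Of 7 for other cation channels (14.3% called) Hcn2 was called, a pacemaker channel, higher by 0.71 with an r-suffixed probe set (adjusted p 0.00464). The other Hcn2 probe set had signals of 12.6 to 121.7 and was not tested. Of 11 probe sets for exchangers, cotransporters and their kinases, the potassium-chloride cotransporters Slc12a4 (-0.71) and Slc12a7 (-0.67) fell (45.5% of the list called). The probe sets of the kinase Wnk1 disagreed. The brightest fell by 0.56, while the others had wild type values of 27.9 to 228.6, all below the background threshold, and LH transgenic values of 408.1 to 1056.3, so that they passed the filter through the LH transgenic pools alone and no fold is given. Slc12a2, the sodium-potassium-chloride cotransporter of secretory epithelia, named here after its values were seen, was 9466 ± 2615 and 11153 ± 569 (log2 0.27, adjusted p 0.326).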

How the data were processed

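RNA abundance was measured with 6 Affymetrix arrays, and the authors deposited a linear intensity for each probe set, for which the submitters' processing notes name MAS5. Detection calls were not used, and the MAS5 version is not given in the sources used here. Arrays had trimmed means of 1500.8 to 1500.9 (2% at each end), so values were used as deposited. Platform annotation named 1 gene for 10833 of 12488 probe sets, and all 113 members were found by gene ID in GRCm38.p6 without a change of symbol. The 66 control probe sets were left out.

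The signals were turned into log2(signal + 80), a pseudocount set at the 20th percentile of the signals, and probe sets with a mean of at least 336.0 (40th percentile) were tested with limma 3.58.1 (lmFit and eBayes with a trend, two-sided, R 4.3.3), without covariates, with Benjamini-Hochberg adjustment over 7453 probe sets. The labels call the pools of a group distinct samples and name no batch, and 3 arrays per group limit precision. On simulated data with the spread of this comparison (7453 probe sets), 50 probe sets were changed at each fold. Of these, 24% of 1.5-fold, 68% of 2-fold, 94% of 3-fold and 94% of 4-fold changes were recovered, with 7 of 147 calls false. The real comparison gave 1586 calls. Recovery after the adjustment depends on the share of changed probe sets, so these rates need not hold for it. The members and lists were chosen with earlier results of these data known. Named were all called members, up to 5 uncalled per family by signal, the 3 untested with the highest signal, and up to 4 called genes per other list. Figures used matplotlib 3.10.9.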

Additional observations from a re-analysis of the deposited data

How the results depend on the processing

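Results were recomputed under 13 other settings and without each array in turn. All tested probe sets gave 1586 calls (49.2% higher), and members 12 higher and 4 lower calls. With the bacterial hybridisation controls as the scale there were 3561 calls (5.08% higher), and 1 member was higher and 14 lower. On that scale the median of all tested probe sets was -0.531, and the called Atp6v1a probe set (-0.0203), Atp6v1d (-0.0857) and Atp6v1g1 (-0.0634) turned below 0, although they lay 0.51, 0.45 and 0.47 above that median. With the muscle marker level in the model 747 probe sets were called, with 8 members higher and 1 lower. With the adipocyte level as a covariate, which separates the groups completely, limma called 0 probe sets and 0 members in either direction, 435 probe sets had an unadjusted p under 0.05, and Atp6v1d differed by -0.098. With the brightest probe set standing for its gene, 6 of 37 tested members were higher and 5 lower, where 22.4% of all tested probe sets were called. The higher count fell because Clcn3 then counts once and the brightest sets of Atp6v0a2 and Atp6v1a are not the called ones. With a filter at the 60th percentile (933.0) 9 members were higher and 2 lower of 29 tested, since fewer dim probe sets were tested. Of all probe sets tested there 27% were called. Leaving out 1 array gave 941 to 1641 calls, with 9 to 11 members higher and 2 to 4 lower. The lower count was 2 without pool 1 or 3 of the wild type or pool 2 of the LH transgenic mice, and all calls numbered 1056 and 941 without wild type pools 1 and 3. Under quantile normalization, median centring, a floor at 16.8 or a pseudocount of 325.5, no filter, eBayes without a trend, robust eBayes and arrayWeights, 11 to 14 members were higher and 3 to 5 lower. The share of all tested probe sets called ranged from 10.8% without a filter, where all 113 members were tested, to 25.2% with arrayWeights. No paired analysis was possible because the labels give the pools of the groups no shared numbers. Signals near 336.0 are near background, where small changes were not detectable with 3 arrays per group.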
